A study of Homo sapiens with 117 samples.

Results

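The MYC and PVT1 region is a stretch of 700 kb on chromosome 8, chr8:127600000-128300000 in GRCh38, that holds the MYC gene, the CTCF sites in front of it and the long non-coding gene PVT1. Its members are all CTCF peaks whose summit, the base with most reads, lies inside these bounds in 24 deposited peak lists. They are 6011 of the 6621481 peaks of the series. MYC encodes a transcription factor that drives growth and cell division and that is amplified in many tumours. PVT1 lies downstream of MYC, is often amplified together with it, and hosts the microRNA genes MIR1204 to MIR1208. CTCF is a zinc finger protein that binds a long DNA motif and, with cohesin, holds the ends of chromatin loops. Loop ends mostly carry motifs that point towards each other. CTCF bound just upstream of MYC is known as a docking point for distant enhancers, and methylation of CpGs inside a motif can keep CTCF off.

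All lists come from CTCF ChIP-seq in DIvA cells, which derive from U2OS osteosarcoma cells and carry the restriction enzyme AsiSI fused to an oestrogen receptor domain. In these cells 4-hydroxytamoxifen (4-OHT), given at 300 nM for 4 h (+DSB), brings AsiSI into the nucleus, where it makes double-strand breaks. The cells carried lentiviral IDH1 WT or IDH1 R132H, whose enzyme makes D-2-hydroxyglutarate, an inhibitor of the TET enzymes that oxidise methylated cytosine. The 8 conditions are IDH1 WT −DSB (3 lists) and +DSB (4 lists), IDH1 R132H −DSB and +DSB (4 lists each), R132H cells that overexpressed the TET1 catalytic domain (TET1 CD) −DSB and +DSB (2 lists each), and R132H cells with its mutant form (TET1 dCD) −DSB (3 lists) and +DSB (2 lists). In 6 pairs of lists of a condition the reads differed by no more than sampling noise, and each pair was counted as 1 sample, so the 24 lists gave 18 samples, with a single one for TET1 CD +DSB. The TET1 CD −DSB lists also differed by no more than noise (chi-square per degree of freedom 0.984) but were kept apart, since the only pair of a condition was joined where it differed by less than noise (p under 0.05), which these did not. No label says that the replicates came from separate cultures, so p-values measure the spread between these samples, which may be technical. No AsiSI site lies in the region. The nearest, at chr8:126056816-126056823, is 1679 kb upstream of the MYC start.

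Several properties of the lists move with the conditions and stand beside the results below. The run names inside the lists contradict the labels in 9 lists. For IDH1 WT −DSB the names are those of untreated mutant cells, for IDH1 R132H −DSB those of untreated wild-type cells, and for TET1 dCD −DSB replicates 1 and 2 those of treated TET1 CD cells. The background level, which follows depth, was 1.04 to 1.65 reads in IDH1 WT −DSB, 4.05 to 5.73 in IDH1 WT +DSB, 2.36 to 3.37 in IDH1 R132H −DSB and 1.06 to 1.62 in IDH1 R132H +DSB. Chromosome 8 held 6.11% to 6.83%, 3.17% to 3.26%, 3.04% to 3.79% and 6.36% to 6.91% of the peaks in the same order, and 4.51% to 6.93% in the TET1 lists. At each treatment neither measure overlapped between the genotypes, so depth and genotype cannot be told apart within a treatment. Among the lists without TET1, both measures also split by genotype over both treatments when grouped by the run names. Chromosome 8 then held 3.04% to 3.79% in wild-type and 6.11% to 6.91% in mutant lists. The background was 2.36 to 5.73 reads in wild-type and 1.04 to 1.65 in mutant lists. Whether the labels or the run names are right was not tested. Groups below follow the labels.

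The region held many peaks in all and an ordinary number of strong ones. A list held from 104 to 428 peak summits in it, which is 4.52 to 11.7 times the median of the 4317 stretches of the same length across the genome. From 1.46% to 9.31% of those stretches had as many peaks or more. Among the 20000 strongest peaks of a list, by the fold over background that the peak caller gave, the region held 2 to 4, against a median of 4 for such a stretch, and 33.5% to 57.1% of stretches held as few or fewer. When the summits of the 50000 strongest peaks of each list were joined within 100 bp, the region held 73 sites, and 89.5% of its peaks lay at none of them, with a median fold between 2.66 and 3.42 in a list. Peaks below that rank in every list could form no site, so this share does not measure how often weak peaks recur.

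Few sites had a summit in every list. A summit was found in all 24 lists at 2 of the 73 sites of the region (2.74%), and at 28975 of the 135474 sites of the genome (21.4%). A further 20 sites had a summit in 12 to 23 lists, and the remaining 51 in 1 to 11 (median 5). Counted by a peak over the centre, wherever its summit lay, 6 of the 73 sites were covered in all 24 lists. The share of the genome's sites by that rule is not given here. Of the 22 sites with at least 12 lists, 3 lay in CASC11 or MYC, 2 between MYC and PVT1, 14 inside PVT1 (4 in exons and 10 in introns) and 3 beyond its end. None lay in the stretch from the start of the region to the strong pair in front of MYC.

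**Figure D1:**
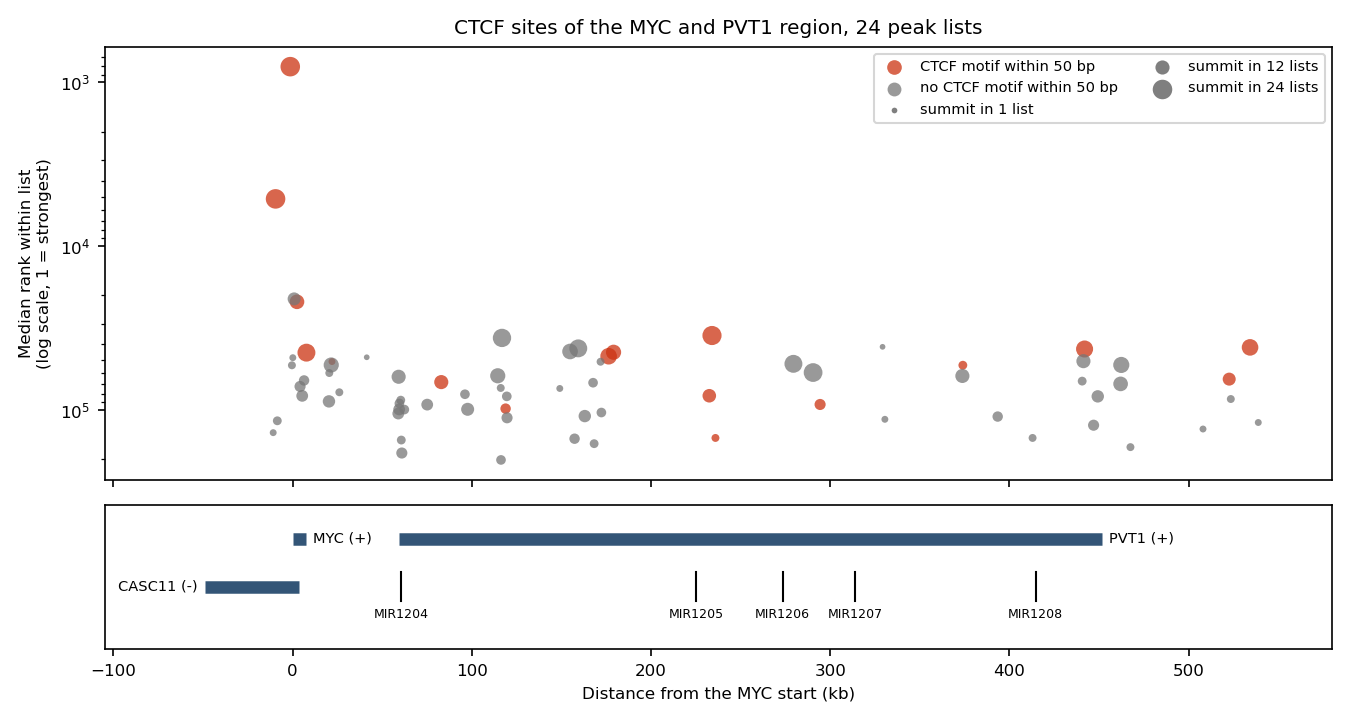
Each point is a CTCF site of the region, placed by its distance from the MYC start in kb and by its median rank within a list (log scale, 1 the strongest peak). Point size gives the number of lists with a summit there, red marks a CTCF motif within 50 bp, and the lower panel shows genes with their strand. The sites at median ranks of 802 and 5157 in front of MYC stand above the other 71, whose median ranks lie beyond 20000.

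The strongest site lay 1336 bp upstream of the MYC start, at chr8:127734098, in an intron of CASC11, a long non-coding gene that runs in the opposite direction across the start of MYC. Its rank within a list ranged from 293 to 5055, with a median of 802, and its fold from 37.3 to 91.8. Of the sites found in all lists, 2.05% had a median rank as strong, and of the 1248 on chromosome 8 it was exceeded by 31. Its summits fell within 31 bp of each other over the 24 lists. A CTCF motif on the plus strand, pointing towards MYC and PVT1, lay 17 bp from the site's centre and held the exact core consensus of CTCF, which 19.5% of the genome's sites in all lists do. No CpG lay inside the motif, and 5 lay within 50 bp of the centre. It is called the MYC-proximal site here.

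The other site in all lists lay 9544 bp upstream of the MYC start, at chr8:127725890, also in an intron of CASC11 and 8208 bp from the MYC-proximal site. Its rank ranged from 3015 to 7002 with a median of 5157, and its fold from 32.5 to 68.1. It also carried a plus-strand motif, without the exact core and with 1 CpG inside it. It is called the upstream site. Between sites found in all lists, the genome's median spacing was 50.5 kb. From the MYC-proximal site the next one downstream was 589 kb away, at chr8:128322853, past PVT1 and outside the region, and 1.79% of such gaps were as long. That site carried a minus-strand motif, so it and the MYC-proximal site point towards each other. On the other side, the upstream site was 229 kb from chr8:127496606, which has a minus-strand motif, pointing away from it.

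The MYC start itself showed no summit of its own in most lists. The nearest site, 90 bp downstream of the start at chr8:127735524 in an exon of MYC, had a summit in 2 lists, with folds of 5.07 and 5.17 and ranks of 50273 and 46159. A peak covered it in 21 of 24 lists. The peak of the MYC-proximal site spanned 924 to 7026 bp, and a peak has 1 summit in these files. Of the other sites inside MYC, 2 lay under a peak in all lists. At chr8:127737840, in an untranslated exon 2406 bp after the start, a summit was called in 13 lists and a peak covered the site in 24. Its folds, from 6.93 to 44.4, reached the highest of any member outside the pair. A site at chr8:127736256 had a summit in 10 lists and was covered in 24. The 3 further along the gene, at chr8:127739560, chr8:127740766 and chr8:127741798, had a summit in 7, 8 and 6 lists and were covered in 17, 17 and 12.

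The PVT1 start carried a weak site. At chr8:127794577, 51 bp after the start of the gene in a PVT1 exon, a summit was called in 12 lists with folds between 3.09 and 7.86 and ranks from 36936 to 219124. The lists with a summit were 2 of 3 for IDH1 WT −DSB, 1 of 4 for IDH1 WT +DSB, 2 of 4 for IDH1 R132H −DSB, 3 of 4 for IDH1 R132H +DSB, 1 of 2 for TET1 CD −DSB, 2 of 2 for TET1 CD +DSB, 0 of 3 for TET1 dCD −DSB and 1 of 2 for TET1 dCD +DSB. A peak covered its centre in 18 lists. No CTCF motif was found within 50 bp, and the stretch was CpG-rich, with 17 CpGs in that window against a median of 2 over all sites of the genome.

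Inside PVT1 the 14 sites with at least 12 lists had median ranks from 35286 to 67983.5 and median folds from 4.16 to 8.01. The most recurrent lay at chr8:127969443 in a PVT1 exon, 174917 bp after the gene's start, with a summit in 23 lists, folds from 4.04 to 16.8 and a minus-strand motif. The next were chr8:128025858 in an intron (22 lists) and chr8:127852249 in an exon (21 lists), both without a motif. Over all 22 sites, 10 had a CTCF motif, 5 on each strand, and 2 of these 10 motifs held a CpG. Across the genome, 39.3% of motifs at sites with at least 12 lists held one. Of the 20 sites with 12 to 23 lists 8 (40%) had a motif, close to the 38.9% of such sites genome-wide. The score needed was set so that 5.00% of windows beside the sites of all lists reached it.

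**Figure D2:**
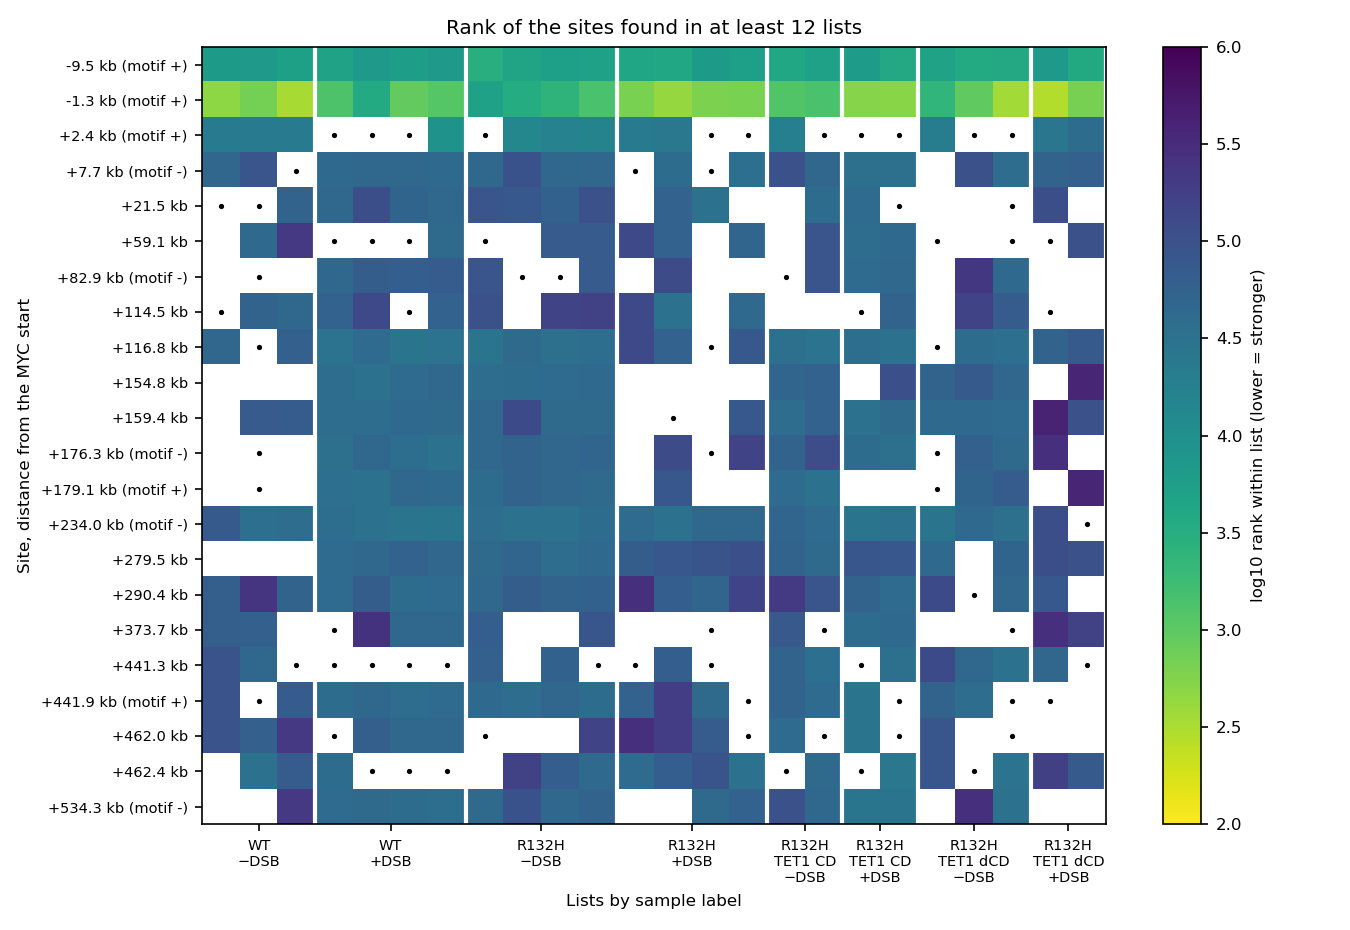
Each cell shows the log10 rank of a site in a list, for the 22 sites of the region with a summit in at least 12 lists (rows, by distance from the MYC start, with the strand of any motif) and the 24 lists (columns, by label). White cells had no summit within 100 bp, and a dot marks those covered by a peak with its summit elsewhere. The pair in front of MYC is filled in all 24 lists, and the site at +154.8 kb is empty in all lists labelled IDH1 WT −DSB or IDH1 R132H +DSB.

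Whether R132H cells gain or lose sites was asked by the number of samples with a peak over each site. Of the 60 sites of the region that could be tested, none had an unadjusted p under 0.05 in Fisher's exact test of 5 IDH1 WT against 6 IDH1 R132H samples over both treatments. Over the genome 0.395% of 95131 sites did, and 0% passed after Benjamini-Hochberg adjustment. With these numbers of samples, 0.00216 is the smallest p that Fisher's exact test can give. A site can therefore pass only where many others also have low p-values. Some sites nevertheless followed the conditions in a crossed way. The clearest, named after its values were seen, was chr8:127890235 in an exon of PVT1, whose centre was covered in 0 of 3 lists of IDH1 WT −DSB, 4 of 4 of IDH1 WT +DSB, 4 of 4 of IDH1 R132H −DSB and 0 of 4 of IDH1 R132H +DSB. Grouped by the run names it was covered in 8 of 8 wild-type and 0 of 7 mutant lists (Fisher's exact test over samples, Benjamini-Hochberg adjusted p = 0.0625, not past the threshold). That grouping gave an unadjusted p under 0.05 at 2 of the 60 sites of the region and at 11.5% of all sites. The smallest adjusted p of any site was 0.0625, and every site with the smallest possible p shares it. Among the IDH1 lists without TET1, those that cover it are also those with the higher background in reads and the lower chromosome 8 share, and the part of these in the pattern was not tested.

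The strength of the MYC-proximal site was compared by its rank, since folds are scaled to a background that differs between lists. Its ranks were 483, 673.5 and 336 in IDH1 WT −DSB, 1293, 3633.5, 930.5 and 1134.5 in IDH1 WT +DSB, 5055, 3349.5, 2489 and 1433 in IDH1 R132H −DSB, and 643.5, 426, 612.5 and 641 in IDH1 R132H +DSB. The site was thus strongest in untreated WT and in treated R132H lists, and the ranges of these groups did not overlap with those of the other treatment in the same genotype, or of the other genotype at the same treatment. On the scale of −log2 rank, where 1 unit is a doubling in position, limma over the 28975 sites found in all lists gave −DSB a difference of -2.73 (SE 0.64) for R132H minus WT, with a Benjamini-Hochberg adjusted p of 0.0056. With DSB the difference was 1.60 (SE 0.57, limma adjusted p = 0.0284). Those contrasts called 25.3% and 46.7% of all sites of the genome. By the labels, the site was thus weaker in R132H than in WT lists without DSB and stronger with DSB. The run names contradict the labels of both groups without DSB.

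The change with DSB went in opposite directions in the genotypes. The MYC-proximal site fell by 1.82 on this scale in IDH1 WT (SE 0.64, limma adjusted p = 0.0291), where 42.7% of all sites were called, and rose by 2.51 in IDH1 R132H (SE 0.57, limma adjusted p = 0.00388), where 28.1% were called. The difference between these changes was 4.33 (SE 0.85, limma adjusted p = 0.000482), in a contrast that called 57% of all sites. Under a regrouping by run name, the genotype difference without DSB turned round to 2.73 and that of the changes to -1.12 (limma adjusted p = 0.768). The change with DSB became 0.91 in IDH1 WT (limma adjusted p = 0.467) and -0.21 in IDH1 R132H (limma adjusted p = 0.9997), neither past the threshold. Without IDH1 WT +DSB replicate 2 the difference with DSB was 1.05 (limma adjusted p = 0.145) and the change in IDH1 WT -1.27 (limma adjusted p = 0.115). The difference with DSB also missed the threshold without IDH1 R132H +DSB replicate 1 or replicate 2 (limma adjusted p = 0.0506 and 0.0966), and the change in IDH1 WT without IDH1 WT −DSB replicate 2 or replicate 4 (limma adjusted p = 0.131 and 0.0574). The difference without DSB missed it without IDH1 WT −DSB replicate 2 (limma adjusted p = 0.06).

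Sites elsewhere on chromosome 8 moved in the same direction. The median rank of the other sites of chromosome 8 found in all lists was 13586 to 13926 in IDH1 WT −DSB, 16503 to 17177 in IDH1 WT +DSB, 15433 to 16898 in IDH1 R132H −DSB and 13608 to 13814 in IDH1 R132H +DSB. Taken relative to the median of the chromosome, the MYC-proximal site differed between the genotypes by -2.48 without DSB (limma adjusted p = 0.00913) and by 1.31 with DSB (limma adjusted p = 0.0606), and the difference between the changes was 3.79 (limma adjusted p = 0.00117). Reads at a summit also have a ceiling, since the highest in each list equalled 2 times its shortest peak. The MYC-proximal site stood at 66.9% to 86.3% of that ceiling in IDH1 WT −DSB, 65.4% to 95.03% in IDH1 WT +DSB, 47.7% to 68.8% in IDH1 R132H −DSB and 66.4% to 81.0% in IDH1 R132H +DSB. The part of the chromosome share, depth and ceiling in the site's rank was not tested further.

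**Figure D3:**
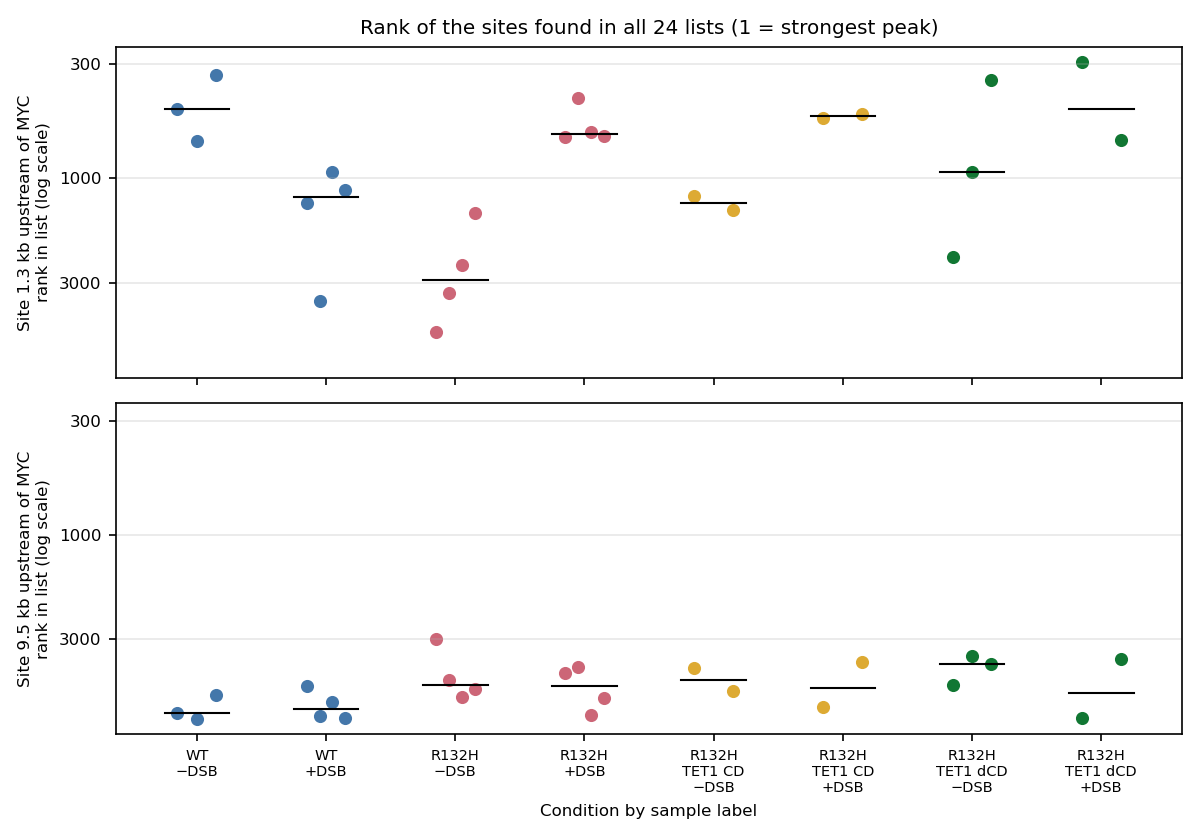
Points show the rank (log scale, 1 the strongest peak) of the MYC-proximal site (top) and the upstream site (bottom) in each of the 24 lists, by label, and lines show the median of the lists. The MYC-proximal site spans ranks of 293 to 5055 and the upstream site 3015 to 7002.

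The upstream site, 8208 bp away, passed the threshold in none of these comparisons. Its ranks were 6546.5, 7002 and 5407 in IDH1 WT −DSB, 4949.5, 6769.5, 5863 and 6902 in IDH1 WT +DSB, 3015, 4633, 5552 and 5116 in IDH1 R132H −DSB, and 4313, 4017.5, 6691.5 and 5582.5 in IDH1 R132H +DSB. These ranges overlapped between treatments in each genotype. R132H minus WT was 0.59 without DSB (95% interval -0.07 to 1.26, limma adjusted p = 0.171) and 0.34 with DSB (95% interval -0.26 to 0.93, limma adjusted p = 0.342). The changes with DSB were 0.09 in IDH1 WT (limma adjusted p = 0.84) and -0.17 in IDH1 R132H (limma adjusted p = 0.67), and they differed by -0.26 (95% interval -1.15 to 0.64). The ratio of the folds of the pair within a list, chosen for description after its values were seen, was 1.49 to 1.78 in IDH1 WT −DSB, 1.13 to 1.23 in IDH1 WT +DSB, 0.919 to 1.27 in IDH1 R132H −DSB and 1.44 to 1.56 in IDH1 R132H +DSB.

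TET1 CD was compared with TET1 dCD to ask whether the catalytic activity matters in R132H cells. The MYC-proximal site ranked 1205 and 1396.5 in TET1 CD −DSB, 531 and 506.5 in TET1 CD +DSB, 2300.5, 931.5 and 353 in TET1 dCD −DSB, and 293 and 665 in TET1 dCD +DSB. The ranks of TET1 CD +DSB thus fell between those of TET1 dCD +DSB. With DSB, TET1 CD minus TET1 dCD was -0.23 (95% interval -2.03 to 1.56, limma adjusted p = 0.868), where 20.4% of all sites were called. Against R132H cells with no construct the difference was 0.10 for TET1 CD (95% interval -1.59 to 1.79) and 0.33 for TET1 dCD (95% interval -1.01 to 1.67), in contrasts that called 7.48% and 1.01% of all sites. With TET1 CD the change with DSB was 1.32 (95% interval -0.47 to 3.12, limma adjusted p = 0.484), where 0.00345% of sites, a single one, were called. The upstream site ranked from 3607.5 to 6903 over the 9 TET1 lists and differed by -0.09 to 0.05 in these comparisons, none past the threshold. TET1 CD +DSB is a single sample, so its spread was taken from the other groups. Its lists had a background of 2.49 to 2.99 reads, against 1.16 to 1.23 in TET1 dCD +DSB. Depth and construct therefore cannot be told apart with DSB. The intervals of the 3 differences between constructs leave room for a change of 1 unit in the MYC-proximal site either way.

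**Figure D4:**
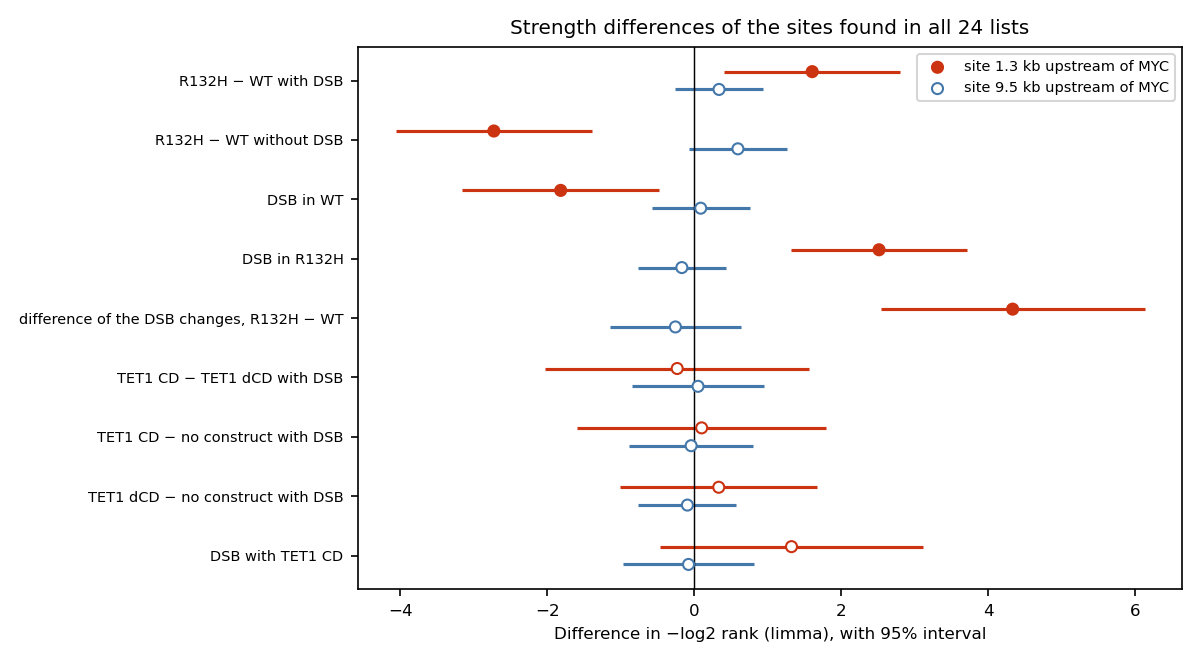
Differences in −log2 rank from limma (points) with 95% intervals (lines) for the MYC-proximal and the upstream site in 9 comparisons. Filled points passed an adjusted p of 0.05. The MYC-proximal site passed in the 5 IDH1 comparisons, from -2.73 to 4.33, and the upstream site in none.

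For the weaker sites, strength was also compared over sites found in at least 18 lists. A list with no summit within 100 bp of a site was ranked just below its last peak, even where a peak covered the site. The comparison held 9 sites of the region, 7 of them besides the pair. Where a summit is missing the rank is set by the length of the list, which ran from 111558 to 503609 peaks. The counts below therefore mix strength with list length and with shifts of the summit. In R132H minus WT, 1 rose and 3 fell with DSB (genome 42.2% called), and 1 rose and 1 fell without (18.1%). With DSB, 2 rose and 1 fell in IDH1 WT (37.1%) and 1 rose and 2 fell in IDH1 R132H (20.7%), while 1 rose and 4 fell in the difference of these changes (52.4%). The PVT1 site at chr8:128014885, in an intron downstream of MIR1206, was called higher with DSB in IDH1 WT and higher in R132H without DSB, comparisons that share the IDH1 WT −DSB lists. Its rank there was set by list length in every list, so no size is given. Its summit was found in 0 of 3 lists of IDH1 WT −DSB and in all 12 of the other lists without TET1. The 3 that fell in R132H with DSB, chr8:127852249, chr8:127894822 and chr8:128177358, are also in PVT1, and had a summit in 3, 1 and 3 of 4 lists of IDH1 R132H +DSB against 4 of 4 each in IDH1 WT +DSB. Over both treatments a peak covered them in 8, 6 and 8 of 8 IDH1 R132H lists. In IDH1 WT it was 7, 6 and 7 of 7 lists. In the TET1 comparisons with DSB, 2 rose in TET1 CD against dCD (17.9%), 0 of 9 were called for TET1 CD against no construct (2.54%), 1 fell for TET1 dCD against no construct (1.85%), and 0 of 9 were called for the change with DSB in TET1 CD cells (0.0336%). The sites called higher in TET1 CD were chr8:127969443 and chr8:128177358, with a summit in 1 and 0 of the 2 TET1 dCD +DSB lists. A peak covered chr8:127969443 in all 24 lists. The TET1 dCD +DSB lists hold 448059 and 503609 peaks against 111558 and 115419 in TET1 CD +DSB. A missing summit therefore ranks lower in TET1 dCD by list length alone.

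The number of peaks in the region differed between conditions in the same crossed way. It was 274, 419 and 382 in IDH1 WT −DSB, 197, 240, 195 and 226 in IDH1 WT +DSB, 104 to 180 (median 121) over the 4 lists of IDH1 R132H −DSB, and 311, 288, 334 and 367 in IDH1 R132H +DSB. By sample the WT mean was 337 ± 89.4 (SD, n = 2) untreated against 216 ± 21.99 (SD, n = 3) treated. The R132H mean was 140 ± 37.1 (SD, n = 3) untreated against 316.5 ± 31.6 (SD, n = 3) treated. Averaged over treatments, R132H minus WT was -48.5 peaks (p = 0.47 by exact two-sided permutation of genotype, of which 0.005 is the least attainable). With DSB the number changed by -121 in IDH1 WT and by 177 in IDH1 R132H (exact permutation tests, p = 0.1 each, the smallest possible). These changes differed by 298 peaks (exact permutation of genotype within treatments, p = 0.005, the smallest possible). That permutation assumes no genotype difference at either treatment, so its p-value is not specific to the change with DSB.

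The direction of that difference varied with the scale. It was kept among peaks with a q-value under 0.05, at 182 peaks (p = 0.005 by exact permutation), and per 1000 peaks of the list, at 0.608 (p = 0.015 by exact permutation). On other scales it turned round. Among the 50000 strongest peaks of each list it was -7.75 (p = 0.04 by exact permutation), and among the 20000 strongest -0.667 (p = 0.595 by exact permutation). Counted as a share of the peaks of chromosome 8, WT samples held 1.58% ± 0.256 (SD, n = 2) untreated and 2.58% ± 0.373 (SD, n = 3) treated. R132H samples held 1.78% ± 0.292 (SD, n = 3) untreated and 1.496% ± 0.185 (SD, n = 3) treated, so the changes differed by -1.29 percentage points (exact permutation test, p = 0.03). When the count was limited to peaks whose −log10 q reached 10, they differed by -21.3 peaks (p = 0.01, exact permutation test). Grouped by run names, R132H minus WT became 149 peaks (exact permutation test, p = 0.005) and the changes differed by -96.9. The region is 0.482% of the length of chromosome 8. TET1 CD lists held 260 and 149 peaks −DSB and 167 and 181 +DSB, and TET1 dCD lists 219, 259 and 223 −DSB and 428 and 366 +DSB, a difference of -125 (p = 0.167 by exact permutation, where 0.0556 is the least attainable).

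Counts among the 20000 strongest peaks of each list differed little, and no comparison of them passed the threshold. IDH1 WT held 2.00 ± 0 (SD, n = 2) peaks −DSB and 2.17 ± 0.289 (SD, n = 3) +DSB, and IDH1 R132H 3.00 ± 1.00 (SD, n = 3) untreated and 2.50 ± 0.5 (SD, n = 3) treated. The genotypes differed by 0.667 peaks (exact permutation test within treatments, p = 0.185), and TET1 CD minus TET1 dCD was 0.125 (exact permutation test, p = 1). In 16 of 24 lists the pair in front of MYC made up all of these peaks.

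**Figure D5:**
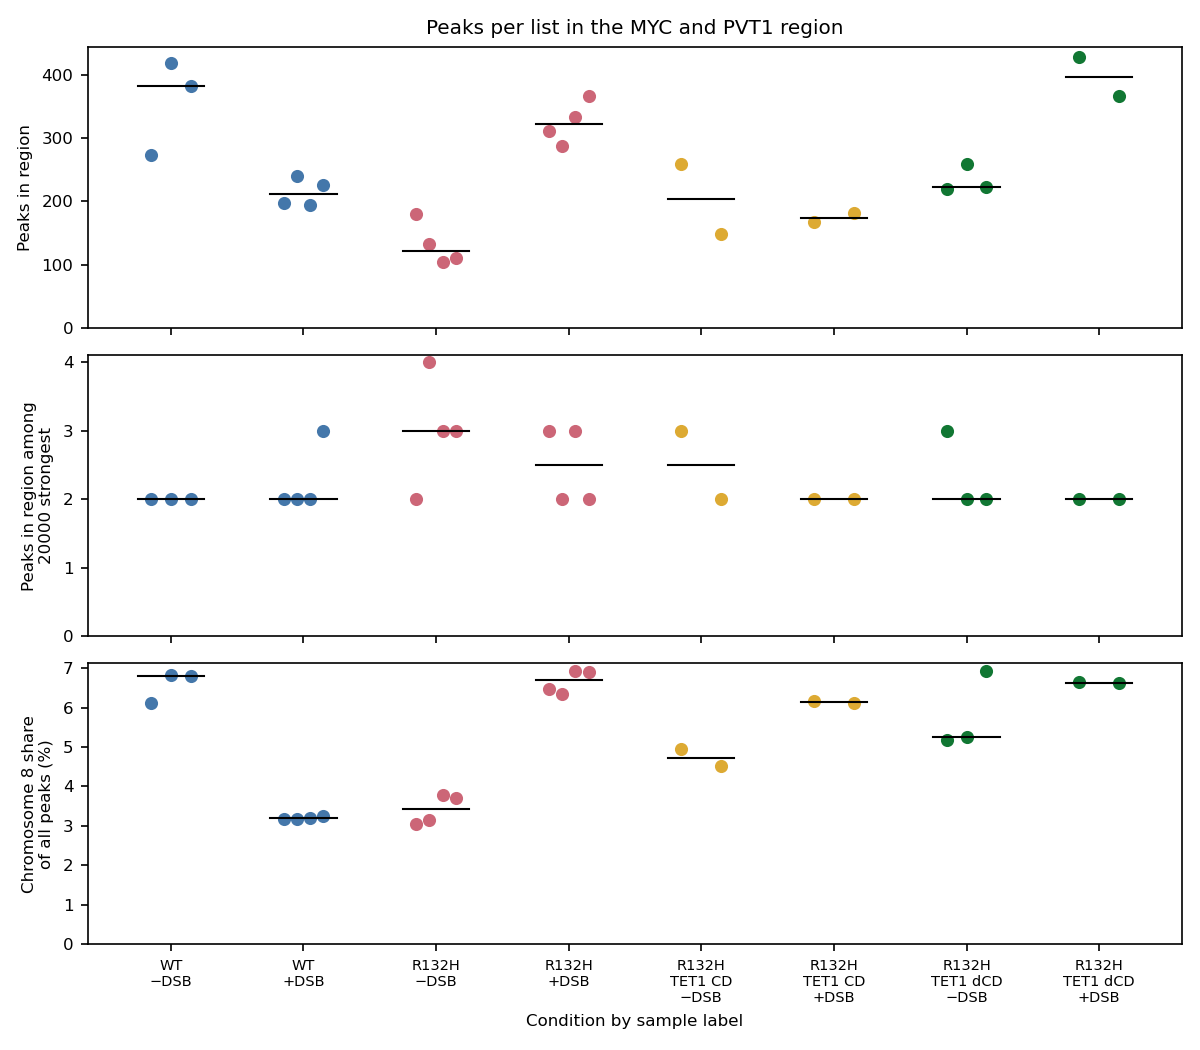
Points are lists and lines their medians, by label, for the number of peaks in the region (top), the number among the 20000 strongest peaks of the list (middle) and the share of all peaks that lies on chromosome 8 in percent (bottom). IDH1 WT −DSB and IDH1 R132H +DSB are high in the top and bottom panels, and the middle panel stays between 2 and 4.

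The genes of the MYC, MAX and MXD network were looked at beside MYC. Most of their proteins pair with MAX to activate or repress MYC targets. Of 12 genes, 11 had a CTCF site within 5 kb of a start, and for 8 the strongest such site was found in all lists, so that it could be tested. MXD4 had no site, and MNT, MGA and MLX had sites in 8, 20 and 12 lists. The strongest was at MLXIPL, with a median rank of 3042, weaker than the MYC-proximal site. Between the genotypes with DSB, 0 of 8 rose in R132H and 3 fell, at MYCN by 1.49, at MYCL by 1.38 and at MXD3 by 0.48 (SE 0.32, 0.23 and 0.15, limma adjusted p = 0.00148, 0.000248 and 0.0131), where 46.7% of all sites were called. Without DSB 1 rose (MAX, by 1.95) and 1 fell (MLXIP, by 0.63), where 25.3% were called. With DSB 4 rose in IDH1 WT and 0 fell (42.7% called), and in IDH1 R132H 0 rose and 1 fell (28.1%). In the difference of the changes 1 rose and 4 fell (57%). With 8 sites, these counts are not read as differing from the shares of all sites. At MYCN and MYCL, paralogues of MYC, the differences without DSB were 0.72 and 0.51 (limma adjusted p = 0.144 and 0.156), and the change of MYCL in IDH1 R132H was -0.43 (limma adjusted p = 0.168). TET1 CD against TET1 dCD with DSB gave 2 of 8 called higher (genome 20.4%), with a single TET1 CD sample whose spread was taken from the other groups, MYCL by 2.47 (SE 0.35, limma adjusted p = 0.00165) and MAX by 2.29 (SE 0.75, limma adjusted p = 0.0398). Background also differed between those TET1 lists, as given above, so depth and construct cannot be told apart there. The median differences over the 8 sites were -0.61 with DSB and 0.46 without for R132H minus WT, against -0.0022 and -0.0027 over all sites tested. Ranks within a list keep the median over all sites nearly level between lists. A shift of the 8 sites as a set was not tested.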

How the data were processed

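CTCF ChIP-seq was made with ChIP-IT High Sensitivity reagents and the antibody ab70303. Per the paper and the submitters' notes, the authors trimmed reads (cutadapt 1.18), mapped them to GRCh38 (Bowtie2; the notes give 2.3.4.1 and the paper another version), filtered by mapping quality and ran MACS2 per sample with input as control. The sources give conflicting versions and quality limits, which are not given here. The deposited lists hold, per peak, a fold ratio over background in which, as the values show, reads and background each have 1 added, a −log10 p and −log10 q (p-value and q-value), and a score, which was not used. The deposited values are not normalized between lists, so strength was compared by rank within a list. The deposited lists reach beyond a q-value of 0.05, from 71.1% to 96.2% of peaks passing it. Totals of 111558 to 503609 peaks per list limit the precision, and depth is known only as the background recovered from the steps between folds. In IDH1 WT +DSB replicate 3 these steps gave whole reads for 27.1% of peaks, so its reads are scaled. No peak ended beyond a chromosome of the reference, and genes are from GENCODE release 44.

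Sites were summits of the 50000 strongest peaks of any list joined within 100 bp. Lists of a condition were counted as 1 sample where a chi-square test of their reads, at shared summits with 20 to 50 reads, found no difference and another pair did differ, or, for a sole pair, where they differed less than counting noise. Ranks were compared with limma 3.58.1 (trend, all 8 groups), presence of a peak over a site's centre with Fisher's exact test, and counts with exact permutation tests (Python 3.11.15, scipy 1.17.1), with Benjamini-Hochberg adjustment over all sites and a threshold of 0.05. A sample made of a pair has a peak where either list does. A CTCF motif matrix of 20 positions was learnt from 15762 strong sites outside chromosome 8, both strands were searched, and the score needed was that reached by 5% of windows beside the sites. The tests were run on simulated data with built-in changes. For Fisher's exact test these were complete splits between the genotypes at many sites. That check therefore does not show what the test can find in these data. The members, lists and rules were chosen with earlier results of these data known. Named are the sites nearest the MYC and PVT1 starts and those in all 24 lists with a median rank up to 50000. Sites in at least 12 lists are given as counts and ranges, and the others singled out were chosen after their values were seen. Of the annotated genes listed in advance, TMEM75 was not found under that symbol. Sequences of chromosome 8 are not printed. The list of IDH1 WT −DSB replicate 1 and the 4C-seq samples were not analysed here.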

Additional observations from a re-analysis of the deposited data

Results flagged for a closer look

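The change with DSB differed between IDH1 R132H and IDH1 WT for 7 values, each tested with that difference as the statistic. The number of peaks in the MYC and PVT1 region changed by 298.25 more peaks in R132H (p = 0.005 by exact permutation, the least attainable). Permuting genotype within treatments assumes no genotype difference at either treatment, so that p-value is not specific to the change. On the −log2 rank scale the MYC-proximal site differed by 4.33, and the sites at MYCN, MYCL, MAX, MXD3 and MLXIP by -2.21, -1.89, -2.95, -0.90 and 0.86, all past a limma adjusted p of 0.05 in a comparison that called 57% of all sites. Depth, the chromosome 8 share and the run names move with the same 4 groups. With groups taken from the run names, the difference in the count became -96.9 peaks (exact permutation test, p = 0.47). That of the MYC-proximal site also changed sign and was not past the threshold. Values under that grouping are not given here for the network sites. The part of depth and of the chromosome 8 share was not tested further.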

How the results depend on the processing

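Depth and the run names limit most of these values, and for changes of direction below the cause was not tested. With groups taken from the run names, the peak count of the region gave 149.125 for R132H minus WT, 76.1667 and -20.75 for the change with DSB in WT and in R132H, and -96.9167 for the difference of these changes. Among the 20000 strongest peaks the same regrouping gave -0.333, -0.833, 0.5 and 1.33. For the MYC-proximal site it gave 2.73 without DSB, 0.91, -0.21 and -1.12 for the changes with DSB and their difference, none of these 3 past the threshold, and -0.65 for TET1 CD minus no construct. For the upstream site it gave -0.59 without DSB, -0.51, 0.42 and 0.93 for the changes and their difference, 0.065 for TET1 CD minus no construct and 0.029 for the change with DSB in TET1 CD cells.

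Counting peaks with a −log10 q of 10 or more gave 15.8, -5.5 and -21.3 for the changes with DSB and their difference and 5.5 for TET1 CD minus TET1 dCD. As percentages of the chromosome 8 peaks, added after the data were seen, these were 1.00, -0.288, -1.29 and 0.533, and per 1000 peaks of the list the last was 0.165, while the difference of the changes was 0.608 (exact permutation test, p = 0.015) and the change in R132H 0.403, in the direction of the count. Among the 50000 strongest peaks R132H minus WT was -1.29 and the difference of the changes -7.75 (exact permutation test, p = 0.04). With every list as its own sample the changes of the count with DSB were -143.8 in WT and 193.5 in R132H (exact permutation test, p = 0.0286 each), and TET1 CD minus no construct at the upstream site was 0.049. Relative to the chromosome median, the MYC-proximal site gave 1.31 with DSB and -1.53 for the change in WT, neither past the threshold, and the upstream site -0.023 for TET1 CD minus TET1 dCD. On quantile normalized folds TET1 CD minus no construct was -0.00074 at the MYC-proximal site.

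Leaving out 1 list at a time, the MYC-proximal site ranged from 1.05 to 1.80 with DSB, -2.98 to -2.39 without, -2.07 to -1.27 for the change in WT, 2.18 to 2.65 for that in R132H and 3.78 to 4.58 for their difference. TET1 CD minus TET1 dCD ranged from -0.82 to 0.36, TET1 CD minus no construct from -0.0055 to 0.29, and TET1 dCD minus no construct from -0.26 to 0.92. At the upstream site the ranges that crossed 0 were -0.048 to 0.18 and -0.29 to 0.071 for the changes in WT and R132H, -0.40 to 0.50, -0.39 to 0.30 and -0.55 to 0.36 for the TET1 comparisons in the same order, and -0.42 to 0.26 for the change in TET1 CD cells. The count ranged from 289 to 361.5 for the difference of the changes, and among the 20000 strongest peaks from -0.125 to 0.375 for TET1 CD minus TET1 dCD. No label says that lists with the same replicate number were handled together. Same-numbered lists correlated from -0.121 to 0.434 in their deviations (median 0.018), with 21 of 65 pairs above 0.1. Other pairs correlated from -0.58 to 0.43, with 25 of 184 above 0.1. With the replicate number as a block the MYC-proximal site gave 1.38, -2.41, -1.51, 2.28 and 3.79 in the 5 IDH1 comparisons and the count -41, -138 and 193.5, with no change of call.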
